A study of Mus musculus with 12 samples.

Results

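Vwf-positive large-vessel endothelial cells were examined in single-cell RNA sequencing libraries of neonatal mouse liver, 1 library per mouse. A cell belonged to this population if it held at least 2 unique molecular identifiers (UMIs, each standing for 1 captured RNA molecule) of Vwf, at least 1 UMI of Cdh5, Pecam1 and Egfl7 together, at most 2 UMIs of the sinusoidal genes Stab2, Clec4g and Oit3 together, none of Ptprc, Cd79a and Cd3e, at most 1 of C1qa, C1qb and C1qc, and none of Pf4. Cells entered if they had between 500 and 50000 UMIs, no more than 20% of them mitochondrial, which left 202557, and 760 of these met the rule (0.375%). They came from 6 control mice, which gave 326 cells, and 6 mice with phlebotomy-induced anemia, which gave 434. All mice were C57BL/6 pups (genotype label C57BL6/J), with litters divided at random between the groups. In the anemia group, 20 µL of blood per g of body weight was taken from the facial vein on P2, P4, P6, P8 and P10, control pups received a needle stick without blood loss, and livers were collected at P11. Whole liver was dissociated enzymatically and no step selected endothelial cells, so the yield of each cell type also depends on the dissociation.

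Von Willebrand factor, the product of Vwf, is a large adhesive glycoprotein that endothelial cells store and release to tether platelets. In the liver it is known from the lining of the portal and central vessels, whereas the sinusoids, the fenestrated capillaries between them, carry scavenger receptors such as stabilins and little of it. Central vein endothelium is known as a source of Wnt ligands and of R-spondin 3, which set the gene expression of the neighbouring hepatocytes, while arteries express connexin 40 (Gja5) and ephrin B2 (Efnb2). Vwf lies at chr6:125546774-125686679 on the plus strand (GRCm38).

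The libraries held between 46252146 and 74545930 UMIs, and the Vwf-positive cells together gave between 111424 and 850386 UMIs per mouse. The median Vwf-positive cell had 4617 UMIs, with per-mouse medians of 3060 to 5558. The mice gave between 24 (anemia 3) and 124 (anemia 4) cells each. Of the 760 cells, 143 had exactly 2 Vwf UMIs, the lowest number admitted, and 291 further cells with 1 Vwf UMI met every other condition. Another 2154 cells had at least 2 Vwf UMIs but 3 or more UMIs of the sinusoidal genes and stayed outside. No doublet caller was run. At least 3 UMIs of stellate, lymphocyte, macrophage or cholangiocyte marker genes were found in 90 of the cells, and 30 had over 15000 UMIs. The libraries shared barcodes, with 5031 barcode sequences found in 2 or more of them, but no barcode was a Vwf-positive cell in more than 1 library. Of the Vwf-positive cells, 47 carried at least 1 UMI of Itga2b, a megakaryocyte gene. The summed level of the 6 megakaryocyte genes was 0 to 47.2 in the Vwf-positive cells and 25.9 to 82.2 in sinusoidal cells, as UMIs per 1000000 UMIs of the summed cells of a mouse (CPM).

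The label was checked against genes that the rule did not use, with sinusoidal cells of the same mice beside them. Sinusoidal cells were defined by the same filters with at least 3 UMIs of Stab2, Clec4g and Oit3 and no Vwf UMI, which gave 12481 cells, 9433 in control and 3048 in anemia. Gja5, the connexin of arterial endothelium, averaged 336 CPM over the 12 mice in Vwf-positive cells and 1.04 CPM in sinusoidal cells. Eln, which encodes elastin of the vessel wall, averaged 2253 against 26.5 CPM. The elastic fibre gene Fbln2 averaged 1236 against 15.6 CPM, and Rspo3, the central vein R-spondin, 1380 against 41.7 CPM. Selp, the P-selectin stored in the same granules as von Willebrand factor, averaged 494 against 60.9 CPM. Each of these 5 genes was higher in the Vwf-positive cells of 12 of 12 mice. The sinusoidal genes Lyve1, Mrc1, Fcgr2b, Dnase1l3, Maf and Clec1b were lower in 12 of 12 mice, Lyve1 for example at 16.02 against 522 CPM. The rule separates both classes on genes that vary together with many others, so these levels are a description without a test, and they follow the label.

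**Figure D1:**
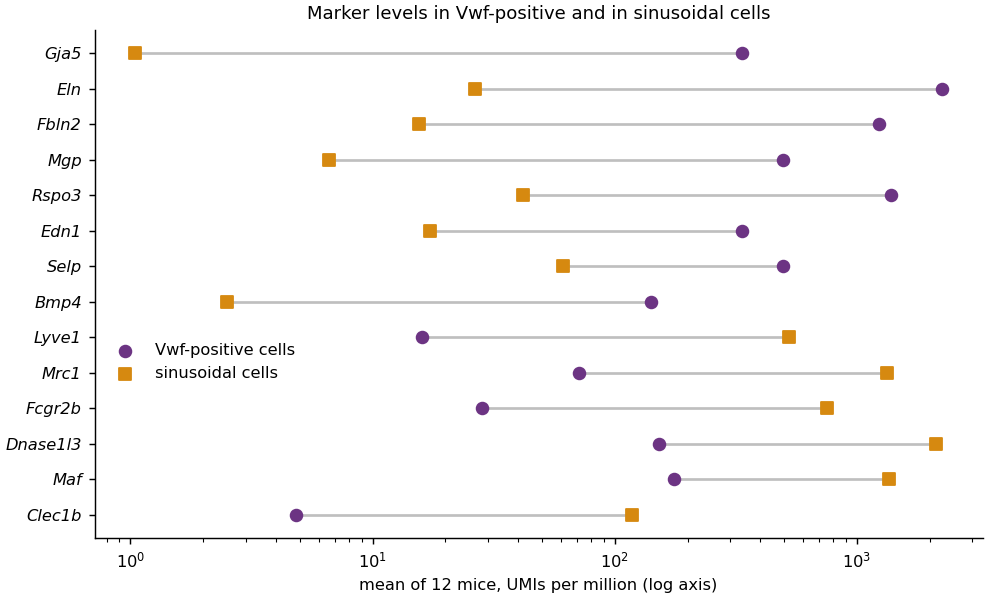
Mean level over 12 mice, in CPM on a log axis, of 8 large-vessel genes and 6 sinusoidal genes in Vwf-positive cells (circles) and sinusoidal cells (squares). The large-vessel genes lie to the right in Vwf-positive cells, as Eln at 2253 against 26.5 CPM, and the sinusoidal genes to the left, as Lyve1 at 16.02 against 522 CPM.

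The Vwf-positive cells were not of 1 kind. Rspo3 was present with at least 2 UMIs in 362 cells (47.6%) and Gja5 with at least 1 UMI in 253 cells (33.3%), and only 1 cell met both conditions, while 146 met neither. This division was chosen after the values were seen and is given without a test. Exactly 1 Rspo3 UMI was found in 19 cells, which lie next to the limit. In B cells without endothelial UMIs, which should lack both genes, Rspo3 was at 0 to 2.93 CPM and Gja5 at 0 to 0.615 CPM over all mice. Across the 760 cells (natural log of 1 plus UMIs per 10000), the levels of Rspo3 and Gja5 had a Pearson r of -0.62, between -0.75 and -0.51 within single mice. Rspo3 levels went together with Adamtsl1 (r = 0.71), with Wnt2, a Wnt ligand of central vein endothelium (r = 0.65), with the transcription factor gene Lhx6 (r = 0.57) and with Rarb, a retinoic acid receptor (r = 0.54). Gja5 went together with Ly6a (r = 0.50), with Ltbp4, a matrix protein that binds latent TGF-beta (r = 0.49), with the cell cycle inhibitor Cdkn1c (r = 0.47) and with Efnb2 (r = 0.46). The cells of a correlation share libraries and differ in depth, and a cell without a UMI of a gene may still express it.

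The share of cells with Rspo3 was lower in each anemic mouse than in any control mouse. In control mice it was 49.0% at the lowest, 58.6% at the median and 61.9% at the highest, and in anemic mice 33.3%, 40.6% and 46.6%. The groups did not overlap. After each cell was thinned to 1000 UMIs, which left out 17 shallower cells, the share with at least 1 Rspo3 UMI was 47.1%, 59.7% and 65.6% in control and 28.9%, 39.2% and 44.7% in anemia, again without overlap. The share that kept at least 2 Rspo3 UMIs after thinning was 37.5%, 44.5% and 53.1% in control and 18.4%, 28.9% and 39.8% in anemia, where 5 of 6 anemic mice were below every control mouse. A share above a limit of UMIs also depends on the level in each cell. Rspo3 was also lower in all cells without UMIs of Cdh5, Pecam1 and Egfl7, a mixture of types. There it was at 8.88 to 22.9 CPM in control and 0.893 to 7.18 CPM in anemia, without overlap. The share of cells with Gja5 was 15.9%, 27.3% and 39.2% in control and 34.5%, 36.7% and 47.4% in anemia, so that 2 anemic mice lay above every control mouse. A second measure used 16 arterial and portal genes and 10 central venous genes at 1000 UMIs per cell, and counted cells with UMIs of the arterial genes only among the cells with UMIs of 1 list only. This arterial share was 15.7% in control and 18.3% in anemia as means, and the difference did not pass an exact two-sided Mann-Whitney test (p = 0.818). Most cells held UMIs of both lists and did not count in it, and between 7 and 25 cells per mouse did.

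**Figure D2:**
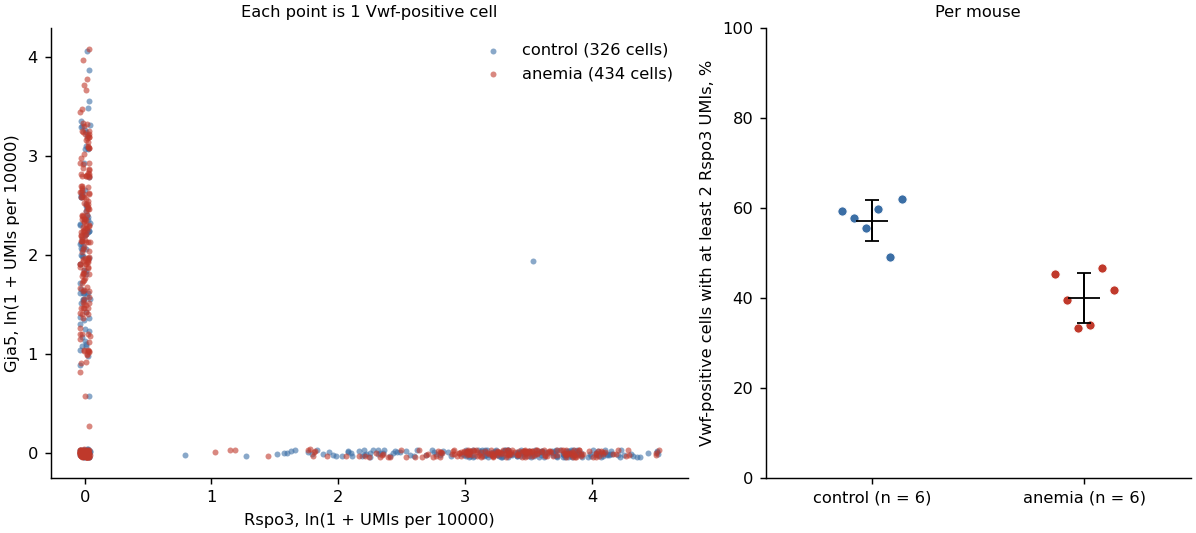
Left, Rspo3 and Gja5 in each Vwf-positive cell as the natural log of 1 plus UMIs per 10000, with a small random shift so that cells at 0 can be seen. Right, percent of Vwf-positive cells with at least 2 Rspo3 UMIs in each mouse, with mean ± SD of 6 mice a group, where control mice span 49.0% to 61.9% and anemic mice 33.3% to 46.6%.

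The abundance of Vwf-positive cells was compared between the groups with 3 denominators, since several other cell types differed in number. Of all cells kept, they made up 0.210%, 0.336% and 0.472% in control (lowest, median, highest, mean 0.343% ± 0.105, SD, n = 6) and 0.114%, 0.436% and 0.671% in anemia (0.422% ± 0.236, SD, n = 6). The anemic mice lay on both sides of the control range, and the difference did not pass the exact two-sided Mann-Whitney test (p = 0.589, adjusted over 6 shares p = 0.589). Erythroid cells, with at least 20% of their UMIs from globin genes, made up 7.42% ± 4.96 of kept cells in control and 22.9% ± 7.71 in anemia (SD, n = 6 each). Without them the Vwf-positive share was 0.369% ± 0.105 in control and 0.553% ± 0.309 in anemia (SD, n = 6 each, exact p = 0.394, adjusted p = 0.473). With 24 to 124 cells per mouse, each share also carries counting error.

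Among endothelial cells the share of Vwf-positive cells was higher in anemia. As a share of Vwf-positive and sinusoidal cells together it was 2.26%, 3.29% and 4.55% in control (mean 3.34% ± 0.833, SD, n = 6) and 5.84%, 14.8% and 18.8% in anemia (13.1% ± 5.75, SD, n = 6). Each of the 6 anemic mice exceeded every control mouse (exact two-sided Mann-Whitney p = 0.00216, the smallest that 6 against 6 allow, adjusted over 6 shares p = 0.00433). The denominator moved with the group. Sinusoidal cells were 9.85% ± 1.34 of kept cells in control and 2.92% ± 1.36 in anemia (SD, n = 6 each, exact p = 0.00216, adjusted p = 0.00433), lower in 6 of 6 anemic mice. These cells had to have no Vwf UMI, a condition that left out 1154 of 10587 sinusoidal-marker cells in control and 2913 of 5961 in anemia. Counted at any Vwf level, a choice made after seeing the data, sinusoidal-marker cells were 11.05% ± 1.501 of kept cells in control and 5.73% ± 2.76 in anemia (SD, n = 6 each, exact p = 0.00216), again lower in 6 of 6 anemic mice, and the ratio of the means was 0.519 instead of 0.296. Without erythroid cells, sinusoidal cells with no Vwf UMI were 10.6% ± 1.28 of the rest in control and 3.94% ± 2.10 in anemia (SD, n = 6 each, exact p = 0.00216). For the lower share of sinusoidal cells, fewer of them in the liver and fewer recovered by the dissociation cannot be told apart. Entry to the class also depends on the number of marker UMIs in a cell.

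Vwf itself was not confined to the cells selected here. Among all 16548 cells that met the sinusoidal rule at any Vwf count, the share with at least 1 Vwf UMI was 9.62%, 11.2% and 11.8% in control and 32.0%, 46.1% and 62.6% in anemia. All 6 anemic mice were above all control mice. These cells were deeper in anemia, with per-mouse medians of 3970 to 4628 UMIs against 2963 to 3781. At 1000 UMIs per cell the share was 2.76% to 4.11% in control and 13.5% to 22.8% in anemia, and in B cells, with medians of 1684 to 2185 UMIs, it was at most 0.180% in control and 0.670% in anemia. The Vwf level of these sinusoidal-marker cells was 41.96, 53.6 and 55.5 CPM in control and 147, 240 and 343 CPM in anemia. Vwf is also a condition of the rule, which therefore uses a gene whose level differed between the groups in neighbouring cells. At least 1 UMI of Stab2, Clec4g or Oit3 was found in 34.4%, 45.8% and 48.6% of the Vwf-positive cells of control mice and in 44.7%, 48.3% and 56.0% of those of anemic mice, 2 of them above every control mouse. When sinusoidal cells of any Vwf count entered the denominator, a choice made after seeing the data, the Vwf-positive share was 2.99% ± 0.731 in control and 7.05% ± 2.62 in anemia (SD, n = 6 each, exact p = 0.00433), and 5 of 6 anemic mice were above every control mouse. When Eln and Fbln2 (at least 2 UMIs together) replaced Vwf in the rule, also chosen after seeing the data, 1897 cells were selected, among them 627 of the 760, and they made up 0.964% of kept cells in control and 0.956% in anemia (exact p = 0.937).

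**Figure D3:**
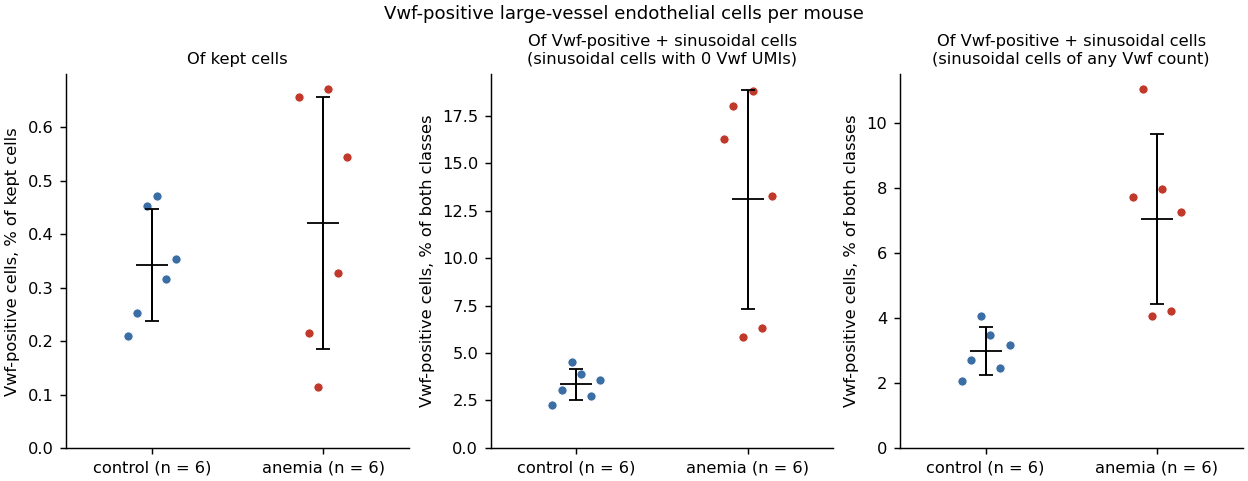
Percent of Vwf-positive cells in each mouse, of kept cells (left), of Vwf-positive and sinusoidal cells with 0 Vwf UMIs (middle) and of Vwf-positive and sinusoidal cells of any Vwf count (right), with mean ± SD of 6 mice a group. The groups overlap at the left, are separate in the middle (2.26% to 4.55% against 5.84% to 18.8%), and overlap by 1 anemic mouse at the right.

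In anemia the Vwf-positive cells had more Fgf23, Pgk1, Osmr and Bmp2 RNA and less Rarb, Wnt2 and Lhx6 RNA. All of these genes but Bmp2 also changed in the same direction in sinusoidal cells, at an edgeR adjusted p under 0.05. Among them only Bmp2 passed the test, given below, for a difference between both kinds of endothelial cells. Gene expression was compared between anemic and control mice with the UMIs of the Vwf-positive cells summed per mouse. Of 8189 genes tested, 30 (0.366%) passed an adjusted p of 0.05 in edgeR's quasi-likelihood test, 19 higher (0.232%) and 11 lower (0.134%) in anemia. Without TMM scaling factors 12 were higher and 14 lower. The groups did not overlap in 74 genes (0.904%), higher in 0.427% and lower in 0.476% of genes, and 752 (9.18%) had an unadjusted p under 0.05, higher in 4.44% and lower in 4.74%. The number of calls depended on single mice. Without 1 mouse it ranged from 7 to 45, and it was 7 without control 1, 9 without control 5, 9 without control 6, 16 without anemia 2, 12 without anemia 3, 7 without anemia 4 and 14 without anemia 5. It was 1 (Rarb) among the 399 cells that held no UMI of the 3 sinusoidal genes. Libraries held more Y-linked than Xist UMIs in 2 of 6 control and 4 of 6 anemic mice. With Y-linked expression as a covariate 17 genes were called, 14 higher and 3 lower, among them the X-linked genes Pgk1 and Shroom2. Sums per mouse cannot tell a change within cells from a change in the mixture of the kinds of cells described above, so levels in cells with at least 2 Rspo3 UMIs and in the others are given beside the main genes. These split levels carry no test.

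The gene with the lowest p was Fgf23, a hormone of phosphate balance known mainly from bone. The first and last bases of its annotated gene are chr6:127072902-127081408 on the plus strand. Its summed level was 0, 4.33 and 26.6 CPM in control and 81.7, 120 and 237 CPM in anemia (lowest, median, highest), from 15 UMIs in all control mice and 373 in all anemic mice. Every anemic mouse was above every control mouse. The log2 fold change was 3.94 ± 0.44 (SE, n = 6 each, edgeR adjusted p = 0.000335). Fgf23 was called in 25 of 26 alternatives and after leaving out each mouse in turn. The exception was the 399 cells without a sinusoidal UMI, where the log2 fold change was 2.28 (edgeR adjusted p = 0.192). At least 1 UMI was found in 8 of 326 control cells (2.45%) and 73 of 434 anemic cells (16.8%). In B cells the level was 0 to 0.615 CPM in control and 0 to 5.51 CPM in anemia. Cells with Rspo3 had 0, 4.00 and 56.5 CPM in control and 143, 296 and 632 CPM in anemia, and the other Vwf-positive cells 0, 2.87 and 8.17 CPM against 9.66, 21.4 and 64.9 CPM. In both kinds of cells all 6 anemic mice were above all 6 control mice. Sinusoidal cells had more Fgf23 than Vwf-positive cells, at means of 70.6 CPM in control and 755 CPM in anemia.

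Pgk1, which encodes the glycolytic enzyme phosphoglycerate kinase 1 and is a known target of hypoxia-inducible factors, lies at chrX:106187100-106203699 on the plus strand. It was at 133, 173 and 209 CPM in control and at 295, 324 and 458 CPM in anemia, without overlap (log2 fold change 1.04 ± 0.15, SE, n = 6 each, edgeR adjusted p = 0.00416). Cells with Rspo3 went from 166, 216 and 246 CPM to 408, 526 and 621 CPM, with all anemic mice above all control mice. The other Vwf-positive cells went from 92.7, 133 and 180 CPM to 171, 231 and 301 CPM, with 5 of 6 above. In B cells Pgk1 was at 205 to 276 CPM in control and 207 to 309 CPM in anemia, with 3 of 6 anemic mice above every control mouse, and in all cells without endothelial UMIs at 153 to 224 CPM against 220 to 580 CPM, with 4 of 6 above. Pgk1 also rose in sinusoidal cells, from means of 269 to 626 CPM (log2 fold change 1.33, edgeR adjusted p = 1.67e-07), and the difference between the changes in both kinds of endothelial cells did not pass (-0.24 ± 0.16 on the log2 scale, SE, edgeR adjusted p = 0.793). Of the 23 tested genes of a hypoxia and glycolysis list, Pgk1 was the only one that passed, while 21 had a positive estimate and 10 an unadjusted p under 0.05, all 10 higher. The median log2 fold change of the list was 0.50, beside -0.005 over all genes tested, of which 4.44% were higher at an unadjusted p under 0.05. Tpi1, which encodes triosephosphate isomerase, was at 85.9, 103 and 133 CPM in control and 136, 156 and 219 CPM in anemia, also without overlap, but did not pass (log2 fold change 0.73, edgeR adjusted p = 0.0559). The more abundant glycolytic genes Gapdh (0.41), Aldoa (0.50), Ldha (0.40) and Eno1 (0.56) had smaller log2 estimates that did not pass. A further entry with the symbol Aldoa was at 0 UMIs, and the estimate is of the entry that had UMIs.

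The sequence ACGTG is a form of the core of the hypoxia response element. It was searched on both strands in RefSeq promoter windows (GRCm38.p6) that run from 250 bases before to 50 bases after a transcript start. It occurred in 6447 of 32851 windows (19.6%) and in 17 of 34 windows (50%) of the hypoxia list, which cover 15 of its 23 genes with a window. The Pgk1 window, chrX:106186850-106187149 on the plus strand, held 2 matches, 150 and 131 bases before the start, and the Fgf23 window, chr6:127072652-127072951 on the plus strand, held none. The Fgf23 window does hold GCGTG, another form of the core, which was not searched. Both windows are shown 5′ to 3′ with the matches in capitals, since these are the 2 called genes with the lowest p. A match is a description of the letters and does not show that a factor bound there.
Pgk1: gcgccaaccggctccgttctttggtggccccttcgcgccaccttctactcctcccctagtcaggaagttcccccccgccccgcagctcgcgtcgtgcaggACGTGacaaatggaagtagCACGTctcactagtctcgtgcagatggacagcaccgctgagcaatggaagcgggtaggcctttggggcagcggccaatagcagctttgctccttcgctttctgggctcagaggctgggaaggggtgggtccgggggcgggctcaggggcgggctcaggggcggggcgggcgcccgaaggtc
Fgf23: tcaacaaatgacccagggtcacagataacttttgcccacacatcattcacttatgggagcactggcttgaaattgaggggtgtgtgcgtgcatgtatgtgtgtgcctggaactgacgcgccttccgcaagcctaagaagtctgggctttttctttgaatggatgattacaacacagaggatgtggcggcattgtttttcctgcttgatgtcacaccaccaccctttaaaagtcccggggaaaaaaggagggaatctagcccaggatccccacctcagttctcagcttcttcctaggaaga

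Of the 10 central venous genes tested, Wnt2 and Lhx6 fell, 9 had a negative estimate and 5 an unadjusted p under 0.05, all 5 lower. The list had a median log2 fold change of -0.41 beside -0.005 over all genes, of which 4.74% were lower at an unadjusted p under 0.05. The fall was shared with sinusoidal cells, where 7 of the 9 tested genes of this list passed as lower and 0 as higher. Over all genes tested in sinusoidal cells 5.97% were lower. Wnt2 (chr6:17988940-18030585, minus strand) was at 171, 255 and 363 CPM in control and 59.5, 100 and 168 CPM in anemia, without overlap (log2 fold change -1.07 ± 0.22, SE, n = 6 each, edgeR adjusted p = 0.0395). With each mouse left out in turn its call held 4 of 12 times, and it was lost without control 1, 3, 5 or 6 or anemia 2, 3, 4 or 5, with edgeR adjusted p up to 0.254 over all alternatives. In sinusoidal cells Wnt2 fell from means of 207 to 95.2 CPM (log2 fold change -0.98, edgeR adjusted p = 0.00464). The difference between the changes in both kinds of endothelial cells did not pass (-0.11 on the log2 scale, edgeR adjusted p = 0.964). Lhx6 (chr2:36081953-36105408, minus strand), whose protein is a LIM homeodomain transcription factor, was at 103, 216 and 285 CPM against 25.5, 81.2 and 109 CPM, with 5 of 6 anemic mice below every control mouse (log2 fold change -1.33 ± 0.25, SE, n = 6 each, edgeR adjusted p = 0.0306). It was lost without control 1, 5 or 6 or anemia 3, 4 or 5. In sinusoidal cells Lhx6 was at means of 17.3 and 8.69 CPM (log2 fold change -0.95, edgeR adjusted p = 0.00433). Rspo3, the R-spondin that amplifies Wnt signals, was at 1238, 1707 and 2158 CPM against 638, 1148 and 1536 CPM, and Wnt9b, a further central vein Wnt ligand, at 62.1, 122 and 127 CPM against 12.7, 45.7 and 89.9 CPM. Neither passed (log2 fold change -0.56, edgeR adjusted p = 0.267, and -0.97, edgeR adjusted p = 0.227), and in each 4 of 6 anemic mice were below every control mouse.

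Within the cells that held Rspo3, the levels of these genes had the same order. Wnt2 was at 385, 468 and 585 CPM in control and 145, 272 and 442 CPM in anemia, with 5 of 6 anemic mice below every control mouse. Lhx6 was at 236, 385 and 505 CPM against 73.9, 199 and 260 CPM, with 4 of 6 below. In the other Vwf-positive cells both genes were lower, Wnt2 at medians of 3.18 CPM in control and 7.23 CPM in anemia with up to 64.9 CPM in a control mouse, and Lhx6 at medians of 15.6 and 8.89 CPM with up to 55.6 CPM in a control mouse. Rarb (chr14:16430839-16819156, minus strand), a nuclear receptor for retinoic acid that was in no list, was at 213, 324 and 367 CPM in control and 76.5, 114 and 193 CPM in anemia over all Vwf-positive cells, without overlap (log2 fold change -1.17 ± 0.20, SE, n = 6 each, edgeR adjusted p = 0.0192). Its call held after leaving out each mouse but anemia 4. Among cells with Rspo3 it was at 432, 541 and 767 CPM against 185, 264 and 459 CPM. In sinusoidal cells Rarb fell from means of 226 to 132 CPM (log2 fold change -0.66, edgeR adjusted p = 0.0138). Alcam, a cell adhesion molecule named after its value was seen, fell over all Vwf-positive cells from 401 ± 121 to 178 ± 61.5 CPM (SD, n = 6 each, edgeR adjusted p = 0.0377), a call that held 3 of 12 times when single mice were left out.

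All 15 tested genes of the arterial and portal list had a positive estimate and none passed, with 5 at an unadjusted p under 0.05 and a median log2 fold change of 0.47. Over all genes tested 4.44% were higher at an unadjusted p under 0.05, and the median was -0.005. Gja4, the connexin 37 gene, was at 101, 290 and 330 CPM in control and at 337, 436 and 859 CPM in anemia, without overlap (log2 fold change 0.99, edgeR adjusted p = 0.131). Hey1, a target of Notch signalling in arteries, was at 6.32, 10.2 and 19.9 CPM against 22.5, 33.5 and 57.2 CPM, also without overlap (log2 fold change 1.64, edgeR adjusted p = 0.0568). Efnb2 was at 75.9, 116 and 220 CPM against 126, 230 and 304 CPM (log2 fold change 0.92, edgeR adjusted p = 0.106), and Gja5 at 176, 279 and 361 CPM against 283, 372 and 646 CPM (0.61, edgeR adjusted p = 0.260). In both, 3 of 6 anemic mice were above every control mouse. Among cells with fewer than 2 Rspo3 UMIs, Gja5 was at medians of 572 CPM in control and 591 CPM in anemia. Cdkn1c, the inhibitor of cyclin-dependent kinases that went with Gja5 across cells, passed over all Vwf-positive cells at 90.1, 185 and 231 CPM against 202, 414 and 565 CPM (log2 fold change 1.29 ± 0.27, SE, n = 6 each, edgeR adjusted p = 0.0395), with 5 of 6 anemic mice above every control mouse. With each mouse left out in turn that call held 2 of 12 times. In the cells with fewer than 2 Rspo3 UMIs it was at 111, 290 and 460 CPM against 312, 597 and 1116 CPM, and in those with Rspo3 at medians of 55.3 and 45.0 CPM.

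Among 22 tested genes of secreted endothelial ligands, Bmp2 and Ccn2 rose and Wnt2 fell, and the list median was 0.15. Bmp2 (chr2:133552159-133562885, plus strand), a bone morphogenetic protein by which liver endothelium is known to regulate hepcidin in hepatocytes, was at 30.5, 43.2 and 53.2 CPM in control and 59.3, 101 and 144 CPM in anemia, without overlap (log2 fold change 1.35 ± 0.23, SE, n = 6 each, edgeR adjusted p = 0.0188). The call held after leaving out each mouse in turn and in 21 of all 26 alternatives. Bmp2 did not pass among the 399 cells without a sinusoidal UMI. It belongs to the sinusoidal list, and sinusoidal cells held it at a mean of 278 CPM over all mice. Its level in B cells was at most 3.04 CPM. Cells with Rspo3 had medians of 33.8 and 44.6 CPM, and the other Vwf-positive cells 39.0 and 125 CPM, with 5 of 6 anemic mice above every control mouse in the latter. Bmp6, the related ligand, was at 32.3, 60.6 and 75.9 CPM against 34.7, 113 and 170 CPM and did not pass (log2 fold change 0.97, edgeR adjusted p = 0.312). None of the other 15 tested genes of BMP response and iron handling passed, among them Smad6, an inhibitor of BMP signalling (0.58, edgeR adjusted p = 0.208), and Id1, a BMP target (0.03, edgeR adjusted p = 1). Ccn2 (chr10:24595442-24598683, plus strand), a matricellular protein known as connective tissue growth factor, was at 52.4, 97.7 and 113 CPM against 141, 246 and 565 CPM, without overlap (log2 fold change 1.58 ± 0.33, SE, n = 6 each, edgeR adjusted p = 0.0411). With each mouse left out in turn the call held 3 of 12 times. Ccn2 was higher in cells with Rspo3, at 84.4, 134 and 168 CPM in control and 227, 429 and 1128 CPM in anemia, without overlap. In the other Vwf-positive cells it was at 0, 51.3 and 115 CPM against 17.7, 79.5 and 132 CPM, with 1 of 6 anemic mice above every control mouse. Ccn2 also rose in sinusoidal cells, from means of 6.57 to 69.4 CPM (log2 fold change 3.54, edgeR adjusted p = 0.00219).

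Of the 12 tested genes for leukocyte adhesion, Sele rose and no other passed. Sele (chr1:164048234-164057677, plus strand) encodes E-selectin, on which leukocytes roll, and was at 119, 148 and 235 CPM in control and 208, 317 and 420 CPM in anemia, with 4 of 6 anemic mice above every control mouse (log2 fold change 1.03 ± 0.21, SE, n = 6 each, edgeR adjusted p = 0.0377). That call, too, held 3 of 12 times when single mice were left out. Sele also rose in sinusoidal cells, from means of 23.1 to 63.9 CPM (log2 fold change 1.59, edgeR adjusted p = 0.00019). Selp (0.38, edgeR adjusted p = 0.633) and Icam1 (0.13, edgeR adjusted p = 0.960) did not pass, Icam1 with 1 control mouse at 923 CPM and the other 5 at 255 to 437 CPM. Osmr (chr15:6813577-6874969, minus strand), the receptor subunit for oncostatin M, was at 52.1, 67.1 and 114 CPM against 135, 161 and 237 CPM, without overlap (log2 fold change 1.27 ± 0.21, SE, n = 6 each, edgeR adjusted p = 0.0188). Its call held after leaving out each mouse. Its medians in control and anemia were 58.6 and 110 CPM in cells with Rspo3 and 104 and 216 CPM in the others. Sinusoidal cells also had more Osmr in anemia, at means of 77.5 and 141 CPM (log2 fold change 0.96, edgeR adjusted p = 4.76e-05).

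**Figure D4:**
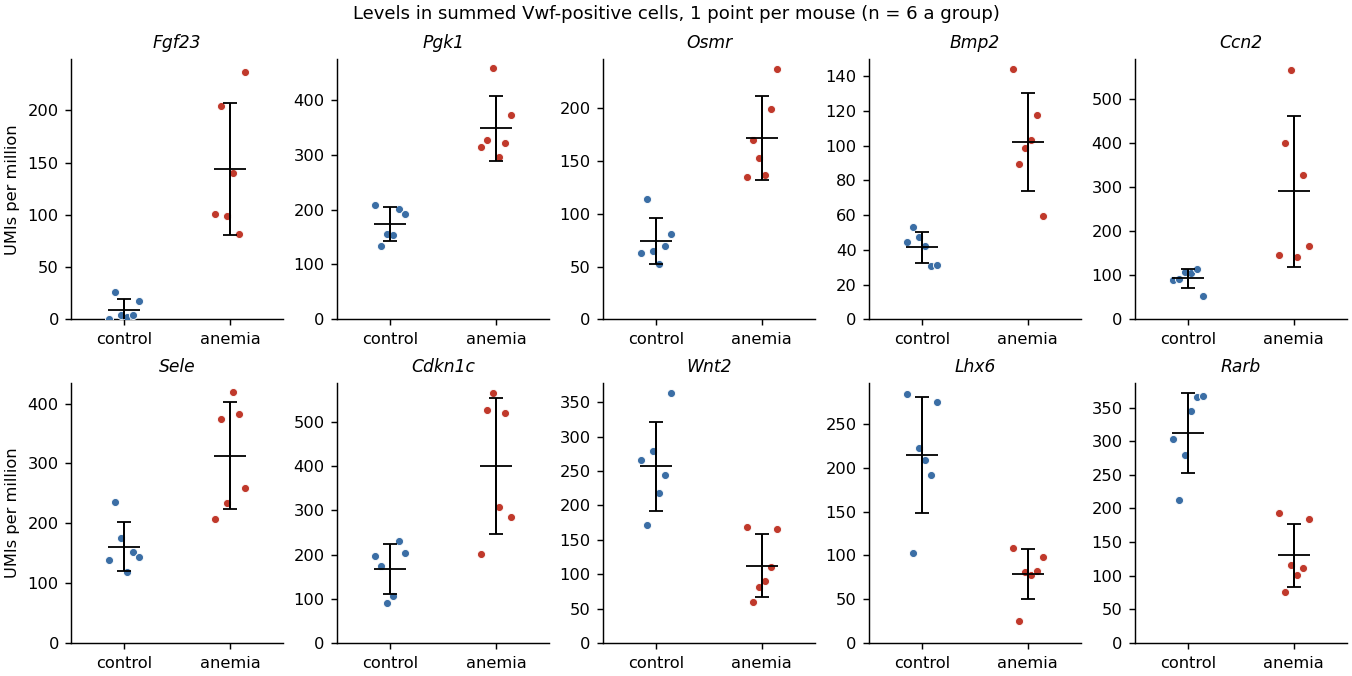
Level in the summed Vwf-positive cells of each mouse, in CPM, of 10 genes that passed, with mean ± SD of 6 mice a group. The groups are separate in Fgf23, Pgk1, Osmr, Bmp2, Ccn2, Wnt2 and Rarb and overlap in Sele, Cdkn1c and Lhx6.

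Of the remaining called genes that the naming rule selects, 6 higher and 4 lower are given here. The part of the rule that takes them admits only genes whose groups were separate. Sept4, which encodes a septin, rose from 29.1 ± 6.12 to 73.6 ± 16.8 CPM (SD, n = 6 each, edgeR adjusted p = 0.00893), and Clca3a1, of a family of near copies among which reads may be shared, from 11.6 ± 7.40 to 67.1 ± 40.5 CPM (edgeR adjusted p = 0.0251). Mctp1, Ypel2, Shroom2 and Dpysl3 rose by log2 fold changes of 1.39, 1.102, 0.96 and 0.90. Myoz3 fell by 1.04 on the log2 scale, the serine protease gene Prss23 fell by 0.82, Ppp1r10 fell by 0.79 and Cit, a kinase of cell division, fell by 0.78. Clca3a1 and Mctp1 also rose in sinusoidal cells (log2 fold change 1.66, edgeR adjusted p = 2.61e-06, and 1.23, edgeR adjusted p = 0.00392). Ppp1r10 also fell there (-0.53, edgeR adjusted p = 0.0423), and the other genes of this paragraph named so far did not pass there. In all cells of the same libraries without endothelial UMIs, a mixture of types, Cit was at 26.7 to 33.6 CPM in control and 13.2 to 26.1 CPM in anemia and Ppp1r10 at 70.4 to 84.1 against 45.1 to 62.9 CPM, both lower in all 6 anemic mice. In B cells 5 of 6 anemic mice were below every control mouse for Cit and none for Ppp1r10. Ypel2, which rose in Vwf-positive cells, was at 29.9 to 39.4 CPM in control and 12.8 to 25.3 CPM in anemia in the cells without endothelial UMIs. With each mouse left out in turn, the call of Sept4 held 12 of 12 times, those of Clca3a1, Mctp1 and Prss23 held 9 times and that of Ypel2 7 times, while Cit held 3 times, Shroom2, Myoz3 and Ppp1r10 2 times and Dpysl3 1 time. With Eln and Fbln2 in place of Vwf the log2 fold changes of Prss23 and Sept4 turned, to 0.08 and -0.24, and neither passed. Annotated genes on the same strand overlap Sept4, Mctp1, Cit, Ppp1r10, Lhx6, Nudt4 and Rspo3, the gene by which the cells were divided.

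RNA of other cell types is given beside the calls. All 11 tested genes of the hepatocyte list had a negative estimate and 1 passed. Cyp2e1, a cytochrome P450 of hepatocytes near the central vein, was at 15.2, 34.0 and 124 CPM in control and 0, 5.03 and 12.3 CPM in anemia (log2 fold change -2.78, edgeR adjusted p = 0.0357), a call that held in 4 of the 11 fits without 1 mouse that tested it. In B cells it was at 24.6 to 49.1 CPM in control and 1.46 to 17.9 CPM in anemia. The list made up 0.237% to 1.06% of the UMIs of Vwf-positive cells in control and 0.0449% to 0.624% in anemia. Globin and the other erythroid genes made up 0.0498% to 1.06% in control and 0.145% to 4.14% in anemia, with 8 of 8 estimates positive, 8 at an unadjusted p under 0.05 and none passing. Of all genes tested, 4.44% were higher at an unadjusted p under 0.05. Among the cells at or under their own mouse's median share of both lists, 12 genes passed, 7 of the 30 among them. Dnase1l3, an endonuclease of the sinusoidal list, rose from 34.3, 85.4 and 131 CPM to 136, 199 and 316 CPM (log2 fold change 1.34 ± 0.26, SE, n = 6 each, edgeR adjusted p = 0.0351), and without single mice that call held 5 of 12 times. B cells held it at 83.0 to 125 CPM in control and 78.6 to 181 CPM in anemia, and sinusoidal cells at a mean of 2127 CPM. In cells without a sinusoidal UMI its log2 fold change was 0.87 and did not pass (edgeR adjusted p = 0.607). The macrophage, lymphocyte, megakaryocyte and cholangiocyte lists had no gene abundant enough to test, with summed levels of 12.3 to 98.7, 3.27 to 48.0, 0 to 47.2 and 0 to 31.6 CPM over all mice, and Krt7 of the cholangiocyte list was at 0. The 3 tested neutrophil genes had negative estimates and did not pass. The 6 genes summed to 31.6, 40.3 and 1678 CPM in control (lowest, median, highest) and 26.6, 53.6 and 116 CPM in anemia. The median of this sum was thus higher in anemia while the estimates were negative. The stellate and mural list was at 69.8 to 1656 CPM in control and 187 to 1755 CPM in anemia, and none of its 6 tested genes passed.

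**Figure D5:**
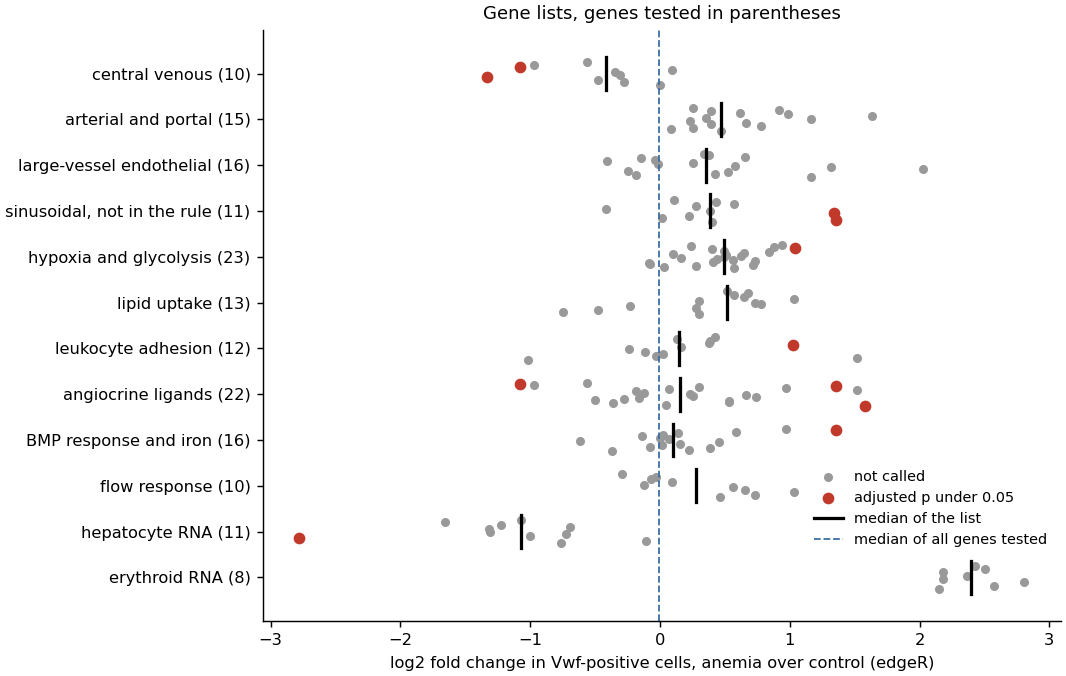
Log2 fold change, anemia over control, of each tested gene in 12 gene lists (edgeR, summed Vwf-positive cells), with the list median as a bar and the median of all genes tested as a dashed line. Red points passed an adjusted p of 0.05; central venous genes lie mostly left of the line with a median of -0.41 and arterial and portal genes right of it with a median of 0.47.

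The last comparison asked whether anemia changed genes differently in Vwf-positive and in sinusoidal cells of the same mice. The term for this difference passed for 44 of 13398 genes (0.328%), 17 with the more positive change in Vwf-positive cells (0.127%) and 27 with the more positive change in sinusoidal cells (0.202%). Sinusoidal cells alone had 1675 of 14768 genes called (11.3%), higher in 5.38% and lower in 5.97%, from many more cells. Fabp4, the fatty acid binding protein of capillary endothelium, was at means of 5180 CPM in control and 7130 CPM in anemia in Vwf-positive cells (log2 fold change 0.51, edgeR adjusted p = 0.305) and at 3761 and 13505 CPM in sinusoidal cells (1.96), a difference of -1.41 ± 0.20 on the log2 scale (SE, edgeR adjusted p = 0.000269). Fabp5, a relative, was at means of 549 and 838 CPM in Vwf-positive cells and 1263 and 4564 CPM in sinusoidal cells (difference -1.25 ± 0.17, SE, edgeR adjusted p = 0.000262). For both genes the change was smaller in Vwf-positive cells. None of the 13 tested genes of lipid uptake passed within Vwf-positive cells, although 6 had an unadjusted p under 0.05, all higher. Of all genes tested in these cells, 4.44% were higher at that limit. The median log2 fold change was 0.51 in the list and -0.005 over all genes.

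Several genes that were higher in Vwf-positive than in sinusoidal cells rose with anemia in sinusoidal cells and did not pass in Vwf-positive cells. Gpm6a, a membrane glycoprotein, was at 167 and 158 CPM in Vwf-positive cells and at 4.86 and 35.1 CPM in sinusoidal cells (difference -2.61 ± 0.34, SE, edgeR adjusted p = 0.000262). Emp1, an epithelial membrane protein gene, rose by 2.72 on the log2 scale in sinusoidal cells and had 0.74 in Vwf-positive cells (difference -1.83, edgeR adjusted p = 0.000262), and the sodium-calcium exchanger gene Slc8a1 had 2.04 and 0.23 (difference -1.72, edgeR adjusted p = 0.000269). Edn1, the endothelin 1 gene, had 2.92 and 0.65 (difference -2.13, edgeR adjusted p = 0.000334), and Selp 1.63 and 0.38 (difference -1.19, edgeR adjusted p = 0.0245), these 2 named after their values were seen. Sinusoidal means in control and anemia were 5.21 and 33.6 CPM for Emp1 and 4.11 and 30.5 CPM for Edn1. Those for Slc8a1 were 36.5 and 139 CPM. In Vwf-positive cells the means were 283 and 455 CPM for Emp1, 268 and 404 CPM for Edn1 and 276 and 316 CPM for Slc8a1. The difference passed 12 of 12 times for Edn1 and 6 times for Selp when single mice were left out. Cdkn1c and Bmp2 went the other way. Cdkn1c rose in Vwf-positive cells (1.29) and fell in sinusoidal cells (-0.57), a difference of 1.86 ± 0.25 (SE, edgeR adjusted p = 0.000262). Bmp2 rose in Vwf-positive cells from 41.5 ± 8.93 to 102 ± 28.3 CPM (SD, n = 6 each) while its sinusoidal means were 304 and 252 CPM, a difference of 1.56 ± 0.23 (SE, edgeR adjusted p = 0.000334). The 6 genes with the lowest p of this comparison, Gpm6a, Cdkn1c, Fabp5, Emp1, Slc8a1 and Fabp4, passed in all 23 alternatives that were run. With sinusoidal cells of any Vwf count, chosen after seeing the data, 34 genes passed, 30 of the 44 among them.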

How the data were processed

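Single-cell 3′ libraries (10x Genomics) were made from 12 livers, 1 library per mouse, 6 control and 6 anemia. The authors deposited UMI count matrices per library, made with Cell Ranger 7.0.0 per the file headers and with mm10 as genome build per the submitters' processing notes. Gene annotation and the use of intronic reads are not given in the sources used here. The labels give 1 batch for all libraries and do not give sex. The study's methods state that both sexes were used in equal numbers, without tying sex to a library.

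From the counts, cells were selected by the rule given in the report. The members and lists were chosen with earlier results of these data known. Shares per mouse were compared with exact two-sided Mann-Whitney tests (scipy 1.17.1), adjusted by Benjamini-Hochberg over 6 shares. UMIs summed per mouse were tested with edgeR 4.0.16 (R 4.3.3; TMM, quasi-likelihood, ~ group), with genes at a mean of at least 5 UMIs, without mitochondrial, ribosomal protein and the 14 rule genes, and p-values adjusted by Benjamini-Hochberg over all genes tested. The interaction was fitted over 2 sums per mouse, with mouse and class as terms and the class by group term tested. Alternatives used DESeq2 1.42.0 and limma 3.58.1. Named genes were called genes with at least 20 CPM in 1 group and no overlap (12 largest each way, without hepatocyte and erythroid genes), called and most abundant genes of each list, and the 6 lowest p of the interaction. Others stand in a list or were named after their values were seen, as were Adamtsl1, Gm10076 and Nudt4. One gene that the rule selects is not reported here. On simulated counts for 8189 genes, the group test recovered 52 of 100 genes changed by 1 and 95 of 100 changed by 2 on the log2 scale, with 8 unchanged genes called. For the interaction over 13398 genes it recovered 28 of 100 and 63 of 100, with 11 unchanged genes called. Gene positions are from GENCODE on GRCm38 and promoter sequences from RefSeq on GRCm38.p6.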

Additional observations from a re-analysis of the deposited data

Results flagged for a closer look

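Single mice stood apart from the other 5 of their group in 17 of 118 groups of values checked by Dixon's test of the gap to the nearest mouse, where about 1 in 20 is flagged by chance, or 5.9. Anemia 2 accounted for 4 of them, with Lhx6 at 25.5 CPM (the others 77.6 to 109), Nudt4 at 268 CPM (108 to 159), Gja5 at 646 CPM (283 to 406) and Ly6a at 3753 CPM (988 to 1642). In control 1 the arterial share was 0% (15.0% to 23.1% in the others) and Gm10076 was at 114 CPM (76.8 to 84.4). In control 2, Tm4sf1 was at 1530 CPM (611 to 914) and Slc8a1 at 543 CPM (142 to 278). Icam1 was at 923 CPM in control 3 (255 to 437). In control 4, Cyp2e1 was at 124 CPM (15.2 to 43.6) and Shroom2 at 67.0 CPM (43.6 to 51.5). In control 5, Clca3a1 was at 26.2 CPM (6.32 to 11.4) and Dpysl3 at 69.8 CPM (34.3 to 44.3). Ypel2 was at 34.9 CPM in control 6 (67.0 to 79.7). In anemia, Cit was at 116 CPM in mouse 1 (71.5 to 85.0), Gm10076 at 75.2 CPM in mouse 5 (170 to 213) and Cd36 at 719 CPM in mouse 6 (323 to 377). Causes were not tested.

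The change with anemia differed between Vwf-positive and sinusoidal cells, by the interaction term, in 15 of the genes named in the report or called there. Given as the log2 change in Vwf-positive cells minus that in sinusoidal cells, the differences were -2.61 for Gpm6a, -1.83 for Emp1, -1.77 for Prss23, -1.72 for Slc8a1, -2.13 for Edn1, -1.32 for Adamtsl1, -1.19 for Selp, -1.41 for Fabp4 and -1.25 for Fabp5. They were positive in Cdkn1c at 1.86, Bmp2 at 1.56, Sept4 at 1.32, Dnase1l3 at 1.20, Efnb2 at 0.99 and Arid5b, a DNA-binding protein gene named after its value was seen, at 0.67. When single mice were left out, the difference passed 2 of 12 times for Arid5b and Efnb2, 6 times for Selp, 7 times for Dnase1l3, 9 times for Prss23, 11 times for Adamtsl1 (not without anemia 1) and 12 times for Sept4 and Edn1.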

How the results depend on the processing

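The higher share of Vwf-positive among endothelial cells kept its direction and its side of the threshold in every alternative run, with differences of 8.60 to 11.2 percentage points when single mice were left out. The shares of kept cells passed in none, and turned to -0.00792 percentage points with Eln and Fbln2 in place of Vwf. The arterial share difference ranged from -0.556 (without control 1) to 4.06 percentage points without single mice. The count of 30 called genes was 168 without a filter on low counts, 61 with DESeq2, 50 without deep cells and cells with other markers, 17 with Y-linked expression as covariate, 12 in cells with less hepatocyte and erythroid RNA, 7 with at least 3 Vwf UMIs, 1 without sinusoidal UMIs, and, chosen after seeing the data, 7 without control 1 and anemia 3, the mice with the fewest cells of each group. Without single mice it was 7 to 45. The alternatives with fewer cells or mice also have fewer UMIs, and otherwise the cause was not tested. The interaction count of 44 was 197 without a filter and 31 to 58 without single mice. With Eln and Fbln2, Prss23 was at 0.084 and Sept4 at -0.24. With the replicate number as a block, 61 genes were called. Same-numbered mice correlated at -0.030 to 0.168 in their deviations from the group means, and mice of unlike number at -0.22 to 0.13. The highest values were those of the mice numbered 2 (0.168) and 4 (0.147). Whether the numbers mark pairs is not settled by these values, and the main tests do not use them as pairs. The block gave an exact p of 0.469 for the share of kept cells and 0.0313 for that of endothelial cells. Genes with few UMIs in these 760 cells could not be tested.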

Other observations

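Other gene lists, fitted in the same test of summed Vwf-positive cells, had no gene that passed unless named. The median log2 fold change over all genes tested was -0.005. Large-vessel genes had 16 tested, 10 positive and a median log2 fold change of 0.36, among them Ly6a at 426, 632 and 1002 CPM in control and 988, 1292 and 3753 CPM in anemia (log2 fold change 1.32, edgeR adjusted p = 0.0723). Sinusoidal genes outside the rule had 11 tested, 10 positive and a median of 0.38, with Bmp2 and Dnase1l3 higher. Gata4, a transcription factor of liver sinusoids, was the 1 with a negative estimate (-0.41, edgeR adjusted p = 0.343). Pan-endothelial genes (14 tested, median 0.05), haemostasis and vascular tone genes (19 tested, median 0.05), VEGF and angiopoietin genes (14 tested, median 0.11), vessel wall matrix genes (31 tested, median 0.19), flow-responsive genes (10 tested, median 0.28) and immediate early and heat shock genes (20 tested, median 0.14) had none that passed. The same held for interferon response genes, with 19 of 21 estimates positive and a median of 0.41, for MHC genes, with 12 of 12 positive and a median of 0.44, for cell cycle genes, with 20 of 21 positive and a median of 0.44, and for glucocorticoid response genes and metallothioneins, with 9 of 10 positive and a median of 0.38. The summed MHC level was 919, 2040 and 3167 CPM in control (lowest, median, highest) and 1015, 1385 and 6342 CPM in anemia, so the groups overlapped and the median was lower in anemia while all estimates of single genes were positive. Only 2 lymphatic genes could be tested, neither passed (median -0.11), and Ccl21a, a chemokine of lymphatic endothelium, was at 0 UMIs.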
